A study of Rattus norvegicus with 8 samples.

Results

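The genes described here are the 5 subunits of the transcription factor NF-κB (Rela, Rel, Relb, Nfkb1 and Nfkb2) and 5 genes of its feedback (Nfkbia, Nfkbie, Bcl3, Nfkbiz and Tnfaip3). They were chosen by name, as members of the family and some of its inhibitors, with earlier results of these data known. All 10 were found by symbol among the 15590 genes of the expression table. Polyadenylated RNA was read from Achilles tendons taken from 8 wild-type male Sprague Dawley rats aged 8 to 10 weeks. In the 0 h p.r. (post-run) group, 4 rats ran for 1 h on a treadmill inclined by 10° at 20 m/min, driven by airflow and a mild electric stimulus, and were killed at once. The 4 naïve controls (NC) kept to normal cage activity. The libraries came from the tendon of the right leg, and the labels give all 8 rats as wild type. In the one-time running experiment of the study, the control rats were killed together with a group examined 12 h after running. If that holds for these libraries, running and time of day cannot be told apart.

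In resting cells, dimers of NF-κB subunits are held in the cytoplasm by inhibitors of the IκB family. Cytokines such as TNF and IL-1 activate the IκB kinase complex, the inhibitor is degraded, and the dimer enters the nucleus. Among the genes it then switches on are its own inhibitors and some of its own subunits, which makes the pathway a textbook case of negative feedback. In tendon, NF-κB signalling is known for its part in inflammation and matrix turnover.

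Values are FPKM, fragments per kilobase of transcript, so levels can be compared between genes, and as deposited they were already scaled to a common median ratio between libraries (factors of 0.9994 to 1.014). A gene was tested where its FPKM reached 0.5 in at least 4 libraries, and it passed both thresholds with a Benjamini-Hochberg adjusted p under 0.05 in limma and a fold change of at least 2. Changes are log2 differences of FPKM + 0.5, 0 h p.r. minus NC, which understates the change of low genes. Whole reads recovered from the steps between FPKM values gave 11350560 to 17897056 reads per library. Of 7 tenocyte markers, all 7 were tested and none passed the thresholds, with Col1a1, the main collagen of tendon, at 1440 to 3543 FPKM. Markers of skeletal muscle varied widely between libraries, with a summed level of 4726 to 8474 FPKM in controls and, in 0 h p.r., 39641, 6740, 17602 and 1205 in replicates 1 to 4. Running replicate 4 had the lowest muscle sum and the highest sums of adipocyte and macrophage markers among the running libraries (2370 and 1168 FPKM), and most of the 10 genes were lowest in it among the running rats.

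All 10 genes passed the filter, and all 10 had a higher mean after running. Bcl3, Nfkbiz, Rel and Tnfaip3 passed both thresholds, so 4 of 10 genes were called higher, where 1.8% of the 13863 tested genes were called higher and 2.7% were called in either direction. Nfkb2 passed the adjusted p with a smaller fold, which made 5 of 10 at any fold, against 3.49% of tested genes. In 8 of 10 genes every 0 h p.r. library lay above every NC library, against 8.15% of tested genes. The median log2 change of the 10 genes was 0.79, and that of all tested genes was -0.001. Since the 10 genes were chosen with earlier results known, these counts and medians are a description.

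Each member except Relb had an entry in a RefSeq promoter table (build GRCr8), which gives 250 bases before and 50 bases after each gene's start. These 300 bases were searched on both strands for the NF-κB consensus, the degenerate 10-base site bound by the dimers, and for a second form, GGG and TTCC separated by any 3 bases, which overlaps the first. The consensus was present in 8 of the 9 promoters and in 4.18% of the 33469 promoters of the table, and the second form in 7 of 9 and in 5.37%. Rela was the member without either. A match describes the letters only, and these promoters belong to genes chosen as known parts of the pathway. The 250 bases before the start are shown for the 4 genes past both thresholds, for Nfkb2, which passed the adjusted p alone, for Nfkbia, which did not pass the test, and for Rela, which held no match. They run 5′ to 3′ on the gene's strand, and capitals mark the bases of a match to either form.
Bcl3, chr1:88613556-88613805, minus strand: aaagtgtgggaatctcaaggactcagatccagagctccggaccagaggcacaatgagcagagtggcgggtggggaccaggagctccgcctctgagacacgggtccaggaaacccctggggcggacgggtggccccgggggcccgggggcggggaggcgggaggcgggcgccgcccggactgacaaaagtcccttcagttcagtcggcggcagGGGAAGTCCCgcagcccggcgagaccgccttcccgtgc
Nfkbiz, chr11:58251471-58251720, plus strand: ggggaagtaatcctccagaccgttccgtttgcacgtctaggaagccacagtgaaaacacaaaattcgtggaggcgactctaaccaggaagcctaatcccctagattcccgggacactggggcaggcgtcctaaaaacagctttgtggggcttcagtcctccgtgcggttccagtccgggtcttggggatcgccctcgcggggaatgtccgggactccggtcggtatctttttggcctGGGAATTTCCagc
Rel, chr14:101921939-101922188, minus strand: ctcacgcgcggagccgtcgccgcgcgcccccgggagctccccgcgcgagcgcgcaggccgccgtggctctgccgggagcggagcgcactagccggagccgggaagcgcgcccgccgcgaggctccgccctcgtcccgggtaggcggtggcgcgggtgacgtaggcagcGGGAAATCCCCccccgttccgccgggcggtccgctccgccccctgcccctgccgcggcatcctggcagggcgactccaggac
Tnfaip3, chr1:15543980-15544229, minus strand: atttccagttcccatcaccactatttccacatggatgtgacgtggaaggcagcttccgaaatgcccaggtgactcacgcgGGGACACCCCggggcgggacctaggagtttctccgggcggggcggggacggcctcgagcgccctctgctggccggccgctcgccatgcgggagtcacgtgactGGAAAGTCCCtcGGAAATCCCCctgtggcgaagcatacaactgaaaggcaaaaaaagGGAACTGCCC
Nfkb2, chr1:255108124-255108373, plus strand: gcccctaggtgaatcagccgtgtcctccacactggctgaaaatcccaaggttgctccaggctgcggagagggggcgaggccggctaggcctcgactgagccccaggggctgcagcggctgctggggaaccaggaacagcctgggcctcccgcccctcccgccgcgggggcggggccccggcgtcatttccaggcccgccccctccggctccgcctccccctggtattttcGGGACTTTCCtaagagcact
Nfkbia, chr6:78597073-78597322, minus strand: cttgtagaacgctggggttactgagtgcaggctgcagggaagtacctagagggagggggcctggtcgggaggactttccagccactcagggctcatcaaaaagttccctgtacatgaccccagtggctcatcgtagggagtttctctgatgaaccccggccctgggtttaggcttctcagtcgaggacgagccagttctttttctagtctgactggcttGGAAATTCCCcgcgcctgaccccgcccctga
Rela, chr1:212354086-212354335, plus strand: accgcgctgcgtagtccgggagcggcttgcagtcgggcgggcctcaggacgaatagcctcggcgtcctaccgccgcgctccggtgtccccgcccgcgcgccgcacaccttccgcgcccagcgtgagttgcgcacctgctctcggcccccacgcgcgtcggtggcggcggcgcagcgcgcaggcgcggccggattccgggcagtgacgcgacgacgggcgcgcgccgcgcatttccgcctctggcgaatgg

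The matches lay close to the start in several members. Counted from the start, the match spanned bases -13 to -4 in Nfkbiz, -20 to -11 in Nfkb2, -31 to -22 in Nfkbia and -38 to -29 in Bcl3. Tnfaip3 held a pair of matches at -67 to -58 and -55 to -46, and further single matches to one form each at -170 to -161 and -10 to -1. In Rel, overlapping matches on both strands covered -82 to -72. The same 10 bases, GGGAATTTCC, were the match in Nfkbia, Nfkbiz and Nfkb1, and 25 of the 33469 promoters (0.0747%) held them on either strand. In Nfkb1 they lay after the start, at bases 4 to 13, and in Nfkbie the match was GGGGGATTCC at -164 to -155. Nfkb2 and Tnfaip3 shared GGGACTTTCC, which 0.111% of promoters held.

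**Figure D1:**
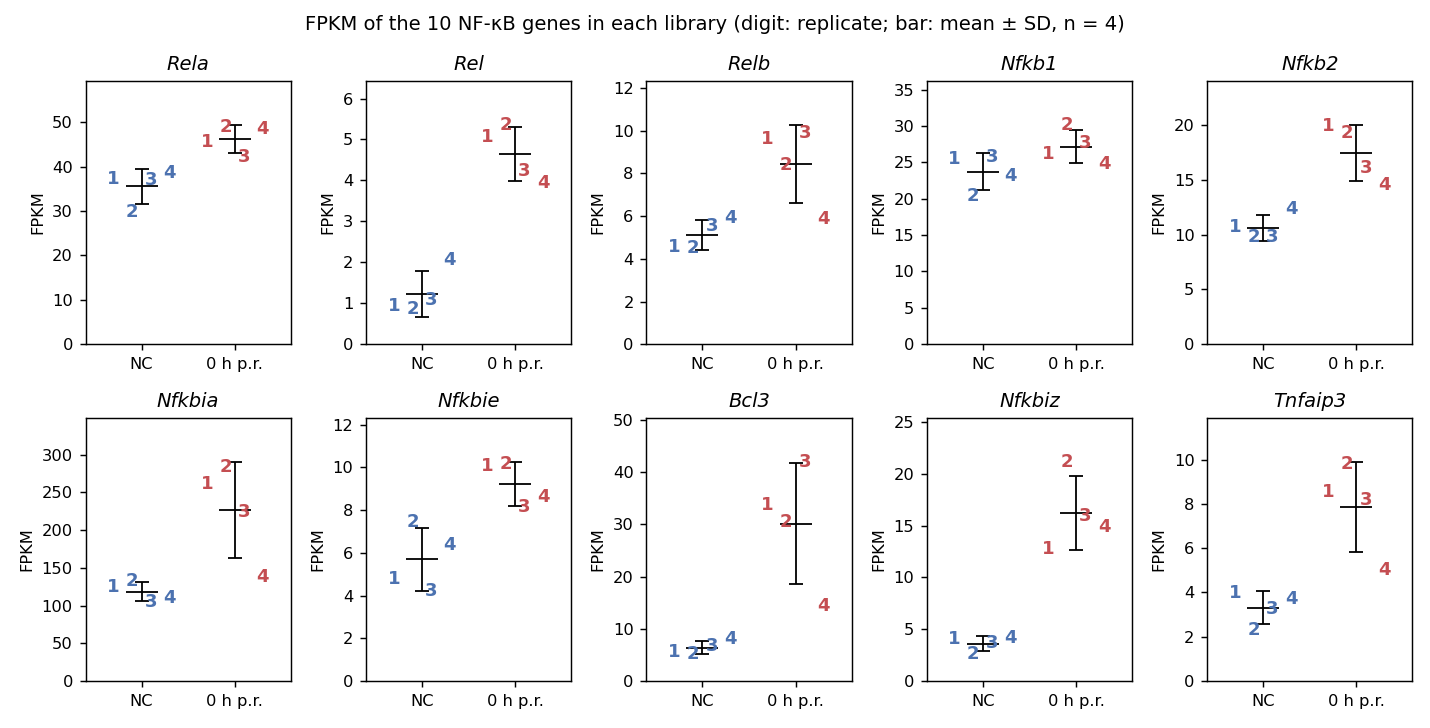
FPKM of each of the 10 genes (vertical axes, linear, from 0) in the 4 NC and 4 0 h p.r. libraries; each digit is a library's replicate number, and bars give the mean ± SD (n = 4). The groups separate in 8 of 10 genes, and replicate 4 is the lowest running library in 7 of 10.

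Among the subunits, Rel showed the largest change. Rel (ENSRNOG00000054437) encodes c-Rel, a subunit with a transactivation domain that is best known from lymphoid cells. Its level in NC was 0.922, 0.856, 1.08 and 2.05 FPKM, and after running it was 5.06, 5.36, 4.23 and 3.94 FPKM. Every running library lay above every control, and NC replicate 4 stood above the other controls. The log2 change was 1.62 ± 0.22 (SE, n = 4 per group; limma adjusted p = 0.00594). The NC values rested on 15 to 54 recovered reads and those after running on 96 to 172, and the log2 change was 1.91 with a pseudocount of 0.1 and 1.36 with 1. Of 8 lymphocyte markers, Cd2 alone had a row, at 0.0553 to 0.681 FPKM over the 8 libraries.

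Nfkb2 (ENSRNOG00000019311) encodes the precursor of the DNA-binding subunit of the alternative pathway, and uncleaved it also acts as an inhibitor. Its FPKM was 10.7, 9.77, 9.76 and 12.3 in NC and 19.9, 19.3, 16.04 and 14.5 after running. The groups did not overlap, with replicates 3 and 4 the lower of the running libraries. The log2 change was 0.68 ± 0.14 (SE, n = 4 per group; limma adjusted p = 0.0267), with a 95% interval of 0.37 to 0.99 that lies under a fold of 2. The adjusted p stayed under 0.05 in 3 of 8 fits that each left out 1 library, and it reached 0.0975 without 0 h p.r. replicate 2.

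Relb (ENSRNOG00000033235), the usual partner of the Nfkb2 product, had 4.56, 4.50, 5.55 and 5.89 FPKM in controls and 9.60, 8.39, 9.88 and 5.85 FPKM after running. Running replicate 4 fell within the NC range, while the other 3 running libraries lay above it. The log2 change of 0.65 ± 0.18 (SE, n = 4 per group) did not pass the test (limma adjusted p = 0.0696). The adjusted p in limma was 0.0161 without running replicate 4, at a log2 change of 0.81, and 0.0963 to 0.183 in the other 7 fits without 1 library.

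Rela (ENSRNOG00000030888) and Nfkb1 (ENSRNOG00000023258) encode the subunits of the most common NF-κB dimer. Rela had 37.2, 29.8, 37.0 and 38.5 FPKM in controls and 45.5, 49.1, 42.2 and 48.4 FPKM after running. Its groups did not overlap, but the log2 difference of 0.38 ± 0.12 did not pass the test (SE, n = 4 per group; limma adjusted p = 0.0931). Nfkb1 had 25.5, 20.4, 25.8 and 23.2 FPKM in controls and 26.1, 30.1, 27.6 and 24.8 FPKM after running. Its groups overlapped, and its log2 difference was 0.20 (limma adjusted p = 0.373) with a 95% interval of -0.07 to 0.46.

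**Figure D2:**
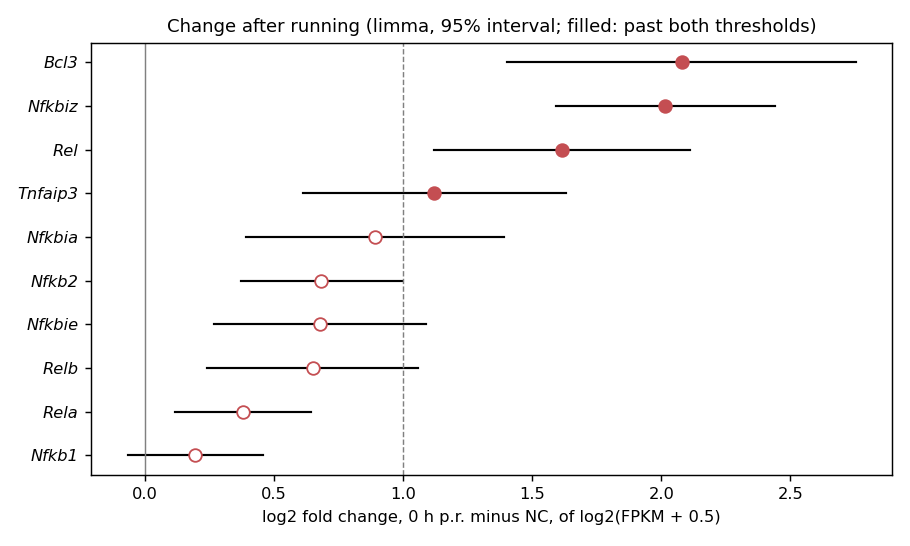
Log2 fold change of each gene, 0 h p.r. minus NC (horizontal axis, log2 of FPKM + 0.5), with the 95% interval from limma; filled points passed both thresholds and the dashed line marks a fold of 2. Bcl3, Nfkbiz, Rel and Tnfaip3 are filled, and the interval of Nfkb1 alone includes 0.

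The transcripts of the 5 subunits summed to 76.3 ± 7.48 FPKM in controls and 104 ± 6.61 FPKM after running (SD, n = 4 each). Rel made up 1.59 ± 0.617% of that sum in NC and 4.45 ± 0.372% after running, and the ranges of 1.17 to 2.503% and 4.04 to 4.77% did not overlap. The share of Nfkb1 was 31.1 ± 1.98% in NC and 26.1 ± 1.37% after running, again without overlap. Rela held 46.6 ± 0.709% and 44.6 ± 3.42%, so it remained the most abundant subunit transcript in both groups. In a bulk tissue, a share of transcripts cannot tell fewer cells of a type from less RNA per cell.

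The classical inhibitors, which bind the dimers in the cytoplasm, had higher means after running but did not pass both thresholds. Nfkbia (ENSRNOG00000007390) encodes IκBα, the fast inhibitor that is degraded and resynthesized within a response, and it was the most abundant of the 10 transcripts in both groups. Its FPKM was 125, 133, 105 and 111 in NC and 262, 284, 224 and 139 after running. All running libraries lay above all controls, but replicate 4, at 138.5 FPKM, was only just above the highest control at 133.1 FPKM. The log2 change was 0.89 ± 0.22 (SE, n = 4 per group; limma adjusted p = 0.0506), and without running replicate 4 it was 1.11 with an adjusted p of 0.00525 in limma, past both thresholds. In the other 7 fits without 1 library the adjusted p was 0.0664 to 0.144. Nfkbie (ENSRNOG00000019907), which encodes IκBε, an inhibitor that acts with a delay, had 4.78, 7.44, 4.21 and 6.38 FPKM in controls and 10.1, 10.2, 8.13 and 8.60 FPKM after running. Its groups did not overlap, and its log2 change of 0.68 ± 0.18 (SE, n = 4 per group) did not pass the test (limma adjusted p = 0.0626). NC replicate 2 was the highest control, and without it the adjusted p in limma was 0.0356 at a log2 change of 0.81. In the other 7 fits without 1 library it was 0.0688 to 0.17, with log2 changes of 0.56 to 0.74.

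Bcl3 (ENSRNOG00000043416) and Nfkbiz (ENSRNOG00000031163) encode the atypical, nuclear IκB proteins Bcl-3 and IκBζ, which bind NF-κB subunits on DNA and can raise transcription as well as lower it. They had the largest changes of the 10 genes. Bcl3 had 5.61, 5.20, 6.61 and 8.02 FPKM in controls and 33.7, 30.4, 42.1 and 14.4 FPKM after running. Running replicate 4 was lower than the other 3 yet above every control. The log2 change was 2.08 ± 0.30 (SE, n = 4 per group; limma adjusted p = 0.00698), a fold of 4.22, and without that library it was 2.39. Nfkbiz had 4.07, 2.62, 3.65 and 4.11 FPKM in controls and 12.8, 21.2, 15.9 and 14.9 FPKM after running. Here replicate 1, not replicate 4, was the lowest running library, and the groups were far apart. Its log2 change was 2.02 ± 0.19 (SE, n = 4 per group; limma adjusted p = 0.000947), a fold of 4.04, and it passed both thresholds in 8 of 8 fits without 1 library, as did Bcl3 and Rel.

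Tnfaip3 (ENSRNOG00000049517) encodes A20, a ubiquitin-editing enzyme that shuts off signalling upstream of the IκB kinases. Its FPKM was 3.98, 2.31, 3.23 and 3.71 in NC and 8.52, 9.81, 8.17 and 5.004 after running. The groups did not overlap, and replicate 4 was again the lowest of the running libraries. The log2 change was 1.12 ± 0.22 (SE, n = 4 per group; limma adjusted p = 0.0264), a fold of 2.18. This call was the least stable of the 4, since it was made in 2 of 8 fits without 1 library. With all libraries kept and the replicate number as a block, it was not made (limma adjusted p = 0.0911). The adjusted p in limma was 0.00668 without running replicate 4 and 0.0911 without running replicate 2.

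**Figure D3:**
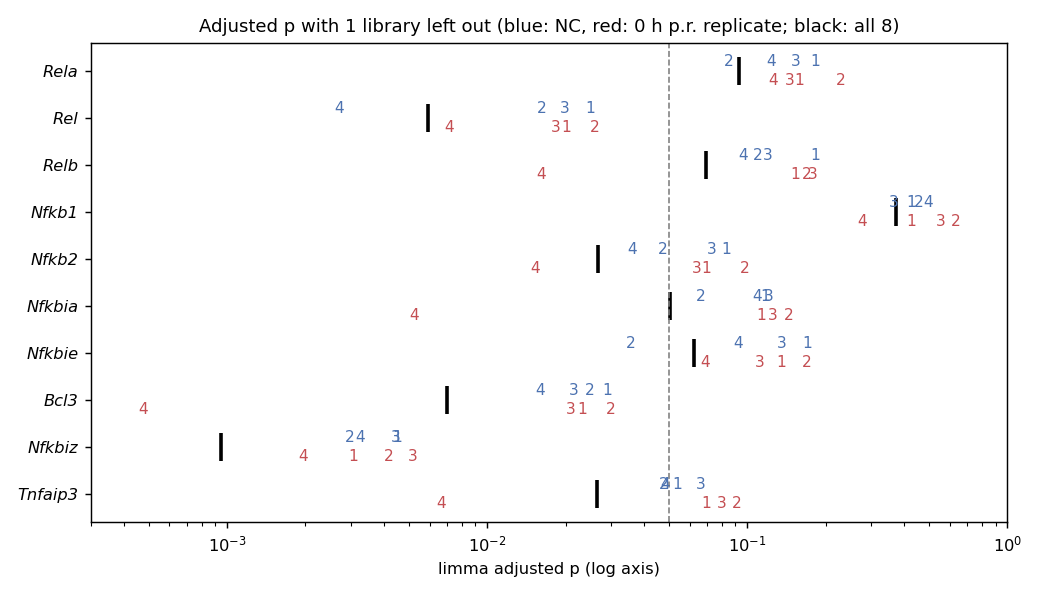
Adjusted p in limma (horizontal log axis) of each gene with all 8 libraries (black bar) and with 1 library left out (digits, blue for an NC and red for a 0 h p.r. replicate); the dashed line marks 0.05. Rel, Bcl3 and Nfkbiz stay left of the line in every fit, while Nfkbia crosses it without 0 h p.r. replicate 4.

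Running replicate 4 was the lowest running library in 7 of 10 genes. Over all tested genes it was the lowest running library in 30.8%, and over the 250 genes called higher in 52.8%. Among the controls, NC replicate 2 was the lowest in 7 of 10 genes and in 37.1% of tested genes. That library had the fewest recovered reads of all libraries, at 11350560. Its total FPKM was 900138, against 554130 to 580360 in the other controls and 576668 to 746030 in the running libraries. Of the 10 muscle markers, 8 were lowest in running replicate 4, while the slow-fibre genes Myh7 and Tnnt1 were lowest in replicate 3. Running replicate 1 had the highest muscle sum and replicate 2 a lower one (39641 and 6740 FPKM). Between these, Nfkb2, Relb and Bcl3 were higher in replicate 1, and the other 7 members were higher in replicate 2. The part of muscle, adipocyte and macrophage content in these differences was not tested.

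The order of the transcript levels changed between the groups. In NC, the means ran from Nfkbia (118.5 FPKM) through Rela (35.6 FPKM), Nfkb1 (23.7 FPKM) and Nfkb2 (10.6 FPKM), each apart from the next. Bcl3, Nfkbie and Relb followed with overlapping values of 6.36, 5.70 and 5.13 FPKM, then Nfkbiz and Tnfaip3 at 3.61 and 3.31 FPKM, also overlapping, and Rel was lowest at 1.23 FPKM. After running, Nfkbia (227 FPKM) and Rela (46.3 FPKM) still led. Bcl3 came next at 30.1 FPKM, overlapping Nfkb1 at 27.2 FPKM, but in running replicate 4 it was below Nfkb1, Nfkbiz and Nfkb2. Nfkbiz at 16.2 FPKM overlapped Nfkb2 at 17.4 FPKM. Nfkbie, Relb, Tnfaip3 and Rel came last at 9.24, 8.43, 7.88 and 4.65 FPKM, and each overlapped the next.

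Ratios within a library put the inhibitors beside the subunits they bind. Bcl3 per Nfkb1 was 0.2696 ± 0.0540 in NC and 1.10 ± 0.406 after running, and Nfkbiz per Nfkb1 was 0.152 ± 0.0214 and 0.593 ± 0.0881 (SD, n = 4 each). Neither ratio overlapped between the groups. Nfkbia per summed subunit was 1.58 ± 0.332 in NC and 2.16 ± 0.511 after running, and these overlapped, with running replicate 4 at 1.42 within the NC range of 1.33 to 2.04. These are ratios of transcripts, and the proteins were not measured in these libraries.

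**Figure D4:**
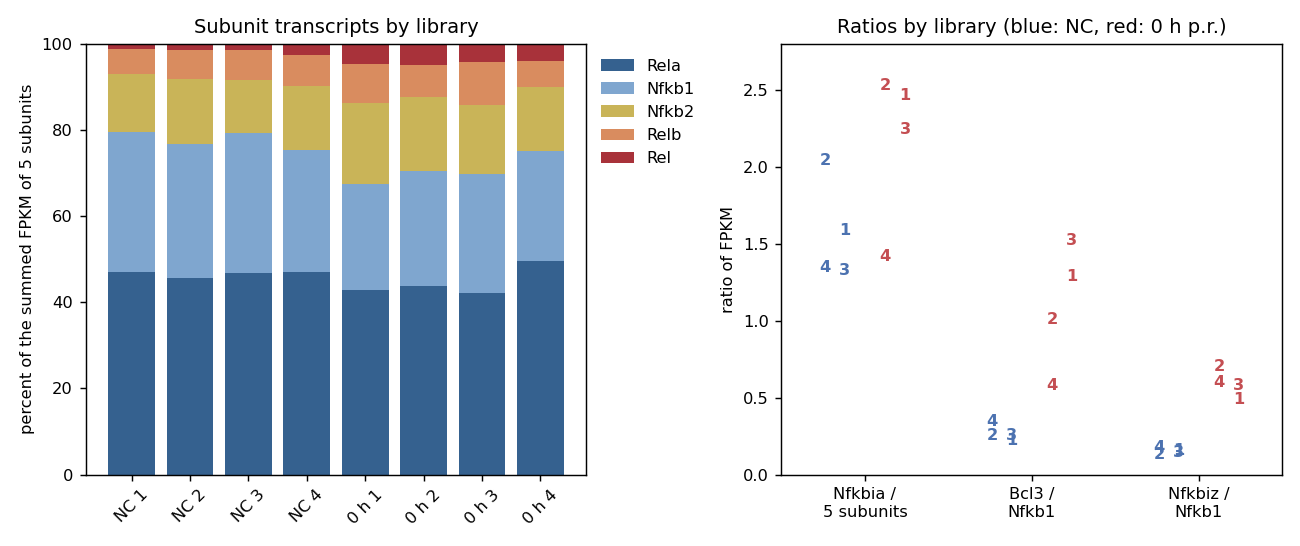
Left, percent of the summed FPKM of 5 subunits held by each subunit in each library; right, FPKM ratios per library (digits are replicates, blue for NC and red for 0 h p.r.). The share of Rel is larger in all 4 running libraries, and Bcl3 and Nfkbiz per Nfkb1 do not overlap between the groups, while Nfkbia per 5 subunits does.

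The rest of the pathway was read from lists of 111 genes, with 97 found in the table and 93 past the filter. Of these, 17 were called higher, against 1.8% of all tested genes, and none lower. The adjusted p was passed at any fold in either direction by 26, against 5.72% of all tested genes. When 1 library was left out, 10 to 17 passed both thresholds, with 10 and 11 without 0 h p.r. replicates 3 and 2. Among ligands, 1 of 5 tested genes was called. Il1b, which encodes the cytokine IL-1β, had 0.725, 0.868, 0.390 and 0.337 FPKM in controls and 5.44, 8.41, 4.30 and 6.90 FPKM after running, a log2 change of 2.64 ± 0.24 (SE, n = 4 per group; limma adjusted p = 0.000886). Its levels were low but apart, and its NC values rested on 7 to 18 reads. The lowest value among the ligands was that of Tnfsf12, the TWEAK cytokine, at a log2 difference of -0.10 (limma adjusted p = 0.834). The other 7 listed ligands had no row in the expression table and were not analysed here.

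Of 12 tested receptors, Tnfrsf12a, the receptor of TWEAK, was called higher with a log2 change of 1.37 ± 0.25 (SE, n = 4 per group; limma adjusted p = 0.0187). Its FPKM was 23.1, 17.4, 29.7 and 28.3 in NC and 84.3, 72.8, 65.1 and 39.4 after running, so replicate 4 was again the lowest running library. Tlr3, the Toll-like receptor of double-stranded RNA, had the lowest value of the receptors, a log2 difference of -0.84 (limma adjusted p = 0.0575). Of 27 tested adaptors and kinases, 2 were called higher. These counts, and that of the other inhibitors, are small and stand beside a share of 1.8% over all tested genes. Irak2, a kinase-like adaptor of IL-1 and Toll-like receptors, changed by 1.52 ± 0.15 on the log2 scale (SE, n = 4 per group; limma adjusted p = 0.00151), and its running libraries lay within 13.2 to 14.9 FPKM against 3.22 to 5.32 FPKM in NC. Map3k8, a kinase that is released when the Nfkb1 precursor is degraded, changed by 1.13 (limma adjusted p = 0.0202). Tab1, a partner of the kinase TAK1, had the largest fall of that list, by 0.62 (limma adjusted p = 0.0335), under a fold of 2. The subunits of the IκB kinase did not pass. Chuk had a log2 difference of 0.51 (limma adjusted p = 0.0779), and its groups did not overlap. Ikbkb and Ikbkg had log2 differences of 0.05 and -0.26, and their groups overlapped.

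Of 18 other tested inhibitors, Zc3h12a, which encodes the RNase regnase-1 that degrades cytokine mRNAs, was called higher. It had 2.48 to 4.56 FPKM in controls and 8.72 to 11.1 FPKM after running, a log2 change of 1.36 ± 0.18 (SE, n = 4 per group; limma adjusted p = 0.00518). Nfkbib, the gene of IκBβ, differed by 0.52 on the log2 scale without passing the test (limma adjusted p = 0.0825). Nfkbid, the gene of the remaining nuclear IκB protein, was under the filter. It had 0 to 0.2625 FPKM in controls and 0.3725 to 0.558 FPKM after running, on 0 to 18 reads per library. In the fit without the filter its log2 difference was 0.63 and did not pass the test (limma adjusted p = 0.0538). Pdlim2, which promotes degradation of nuclear Rela protein, had the largest fall, by 0.76 (limma adjusted p = 0.0281), also under a fold of 2. The median log2 changes of the receptor, adaptor and kinase, and other inhibitor lists were 0.12, 0.09 and 0.08.

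Of 31 tested target genes, 12 were called higher, against 1.8% of all tested genes, and none lower, and the median log2 change was 0.81. Il6, an inflammatory cytokine, showed the largest rise at 5.49 ± 0.41 (SE, n = 4 per group; limma adjusted p = 0.00036), from 0 to 0.326 FPKM in NC to 35.1, 36.9, 42.8 and 10.4 FPKM after running. The NC values of Il6 rested on 0 to 5 reads, those of Cxcl2 on 0 to 6 and those of Cxcl1 on 7 to 12, so the sizes of these folds depend on the pseudocount. The chemokines Ccl7, Ccl2, Cxcl1 and Cxcl2 rose by 3.64, 3.33, 3.31 and 2.22 on the log2 scale, and Selp, an adhesion receptor of endothelium and platelets, by 1.88. Ccl5, the other chemokine of the list, had a log2 difference of -0.92 that did not pass the test (limma adjusted p = 0.103). The lists were drawn up with earlier results known, so their counts are a description. Traf1, an adaptor of TNF receptors and itself a known target, went the other way and fell by 0.95 (limma adjusted p = 0.0142), with 2.995 to 4.50 FPKM in controls and 1.55 to 2.14 FPKM after running.

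**Figure D5:**
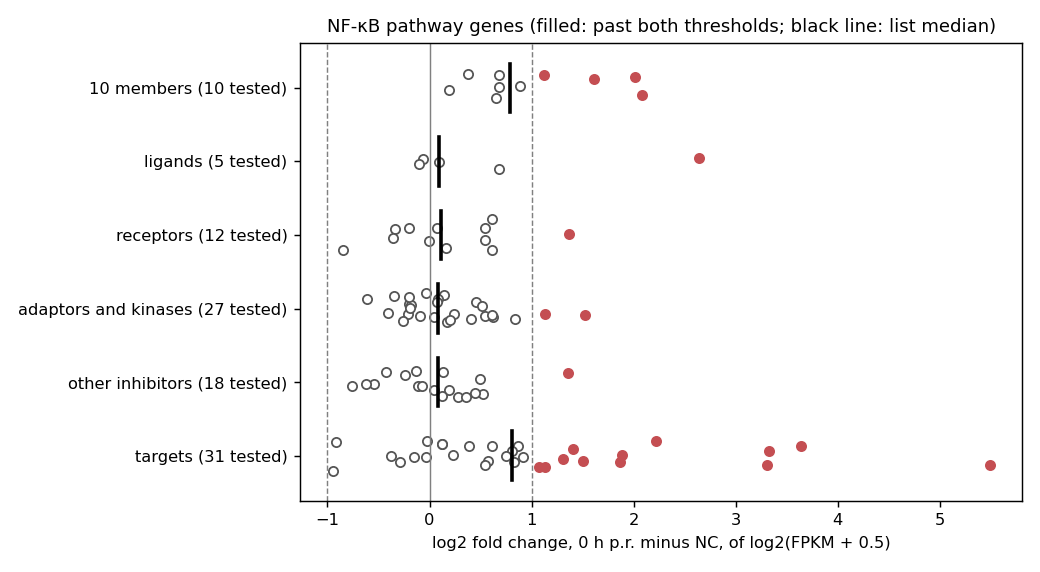
Log2 fold change, 0 h p.r. minus NC (horizontal axis, log2 of FPKM + 0.5), of each tested gene of the 10 members and 5 pathway lists; filled points passed both thresholds, black lines are list medians and dashed lines mark a fold of 2. The members and targets have medians of 0.79 and 0.81, while the other lists have medians of 0.08 to 0.12.

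Genes with the most similar pattern over the 8 libraries were found by the root mean square difference of centred log2 values. Nearest to Rel were Dusp5, a phosphatase of ERK (0.184), then Dll1, Zc3h12a, Slc20a1 and Plk3. Nearest to Nfkbiz were LOC108348108 (0.119), then Zfp36, which encodes the mRNA-decay factor tristetraprolin (0.224), Sphk1, Hsph1 and Fosl2. Bcl3 was followed most closely by Stc1 (0.184), Rgs16, Rnd1, Selp and Adamts4, and Tnfaip3 by Ccdc6 (0.128), Rybp, Hivep2, Itpkc and Lrrc32. Since each measure includes the group difference, genes that changed by a similar amount come out near each other.

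Markers of other cell types were set beside these results. None of 10 macrophage markers was called, 3 of 10 had a log2 difference above 0, and their median was -0.09. Their summed level of 418 to 844 FPKM in controls and 512 to 1168 FPKM after running had Lyz2 as its largest part (187 to 736 FPKM over the 8 libraries), while Cd163 had a log2 difference of -1.09 (limma adjusted p = 0.0982). None of 7 endothelial markers was called either, though Egfl7 passed the adjusted p with a log2 change of 0.75 (limma adjusted p = 0.027). Of 8 neutrophil markers, 4 had a row and 2 were tested, and both passed the thresholds in opposite directions at low levels. S100a9 had 0.191 to 0.746 FPKM in controls and 1.05 to 1.71 FPKM after running, a log2 change of 1.23 (limma adjusted p = 0.0192) on 1 to 15 reads per library. Mpo fell by 1.45 (limma adjusted p = 0.0146), and Csf3r and Cxcr2 were under the filter. Adipocyte markers were lower, with 6 of 9 called lower, against 0.894% of all tested genes, and sums of 3223 to 6508 FPKM in controls and 1099 to 2370 FPKM after running. Of 11 glucocorticoid targets, a list included because Nfkbia is also induced by glucocorticoids, 4 were called higher, against 1.8% of all tested genes. These were Dusp1, Mt2A, Errfi1 and Cdkn1a, with log2 changes of 1.52, 1.503, 1.32 and 1.11, and Sgk1, with a log2 change of 0.84, passed the adjusted p but not the fold. The other 6 did not pass the test, among them Fkbp5 and Tsc22d3 at log2 differences of -0.45 and -0.43. The part of macrophage, neutrophil and adipocyte content and of glucocorticoids in the changes of the 10 genes was not tested.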

How the data were processed

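Each library was placed in its group by its sample label. The authors captured polyadenylated RNA of an integrity number above 7, made stranded libraries, aligned reads with HISAT2 2.1.0 to Rnor_6.0, counted them and took gene lengths with featureCounts 1.6.3, and normalized with DESeq2 1.30.1. The deposited values used here are FPKM, on a common scale between libraries. The table's fold changes and p-values are the authors' own comparison and were not used.

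FPKM was analysed as log2(FPKM + 0.5) with limma 3.58.1 in R 4.3.3 (lmFit, eBayes with a trend), two-sided, with Benjamini-Hochberg adjustment over the 13863 genes whose FPKM reached 0.5 in 4 or more libraries. Whole reads were recovered from the steps between FPKM values for 15590 of 15590 genes, to within 0.02 reads, in Python 3.11.15. Scripts were tested on simulated data. The read recovery failed on a small simulated subset of genes and recovered nearly all genes of a simulated table of full size. Its step for NC replicate 2 was corrected after the reads first came out nearly all even. Only depths, read counts and the voom alternative rest on it. The p-values measure the spread between the 4 samples of each group.

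The members and lists were chosen with earlier results of these data known. Named genes were all 10 members, Nfkbib and Nfkbid, up to 6 genes past both thresholds per pathway list with its largest rise and fall, and the 5 genes most like each called member. The IκB kinase subunits, Ccl5, Lyz2, Cd163, Egfl7, Myh7, Tnnt1 and the lymphocyte, neutrophil and glucocorticoid genes were named in addition, after their values were seen. Col1a1, a tenocyte marker, was also named outside the rule. Alternatives were pseudocounts of 0.1 and 1, all genes unfiltered, a mean-FPKM minimum of 2, median-ratio and quantile scaling, limma voom on recovered reads, a replicate block, any fold, and leaving out each library. Promoter sequences are RefSeq's, build GRCr8.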

Additional observations from a re-analysis of the deposited data

Results flagged for a closer look

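The values of the 10 genes, the summed subunit FPKM and the shares and ratios made 42 sets of 4 values, each from 1 group. In 3 sets 1 library was far from the others, and chance alone gives about 1 in 20. The share of Rel in the summed subunit FPKM was 2.503% in NC replicate 4 and 1.17 to 1.36% in the other controls. Rel per Rela, which shares its values with that measure, was 0.0532 in the same library and 0.0248 to 0.0291 in the others. Nfkbia per Rela was 2.86 in 0 h p.r. replicate 4 and 5.31 to 5.79 in the other running libraries.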

How the results depend on the processing

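No member changed direction in 160 alternative fits of the 10 genes, of which 152 kept the call or its absence, 7 lost it and 1 gained it. All 7 losses were Tnfaip3, and the gain was Nfkbia without 0 h p.r. replicate 4. With all libraries kept, 79 of 80 kept it, and the exception was Tnfaip3 with the replicate number as a block (limma adjusted p = 0.0911). Of these 80, the 10 fits with median-ratio scaling could move little, with factors of 0.9994 to 1.014. The fits without the filter, with the mean-FPKM minimum or with the block left each log2 change as it was. Their direction could therefore not change. A gene that stayed uncalled with 1 library left out says little, since fewer libraries generally make a call harder to reach. On the adjusted p alone, Nfkb2 was at 0.106 with the block, and Nfkbia and Nfkbie were at 0.0419 and 0.0495 with limma voom on recovered reads. Members past both thresholds numbered 3 to 5 when 1 library was left out. Genes past both thresholds numbered 374 with all libraries and 191 to 504 when 1 was left out, and 793 passed the adjusted p at any fold. They were fewest without 0 h p.r. replicate 2, with 195, 210 and 241 without 0 h p.r. replicate 3, NC replicate 1 and 0 h p.r. replicate 1. Pathway genes past both thresholds numbered 10 to 17 when 1 library was left out, with 10 and 11 without 0 h p.r. replicates 3 and 2, and 26 passed the adjusted p at any fold. The cause was not tested. Same-numbered libraries did not deviate together (r of -0.141, -0.0708, 0.0717 and 0.00562 across genes) and did not each correlate best with their own number. So few values showed no pairing by number but cannot exclude one. The replicate block gave 212 genes. Among the members, Rel in NC had the fewest reads, at 15 to 54.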
